A study of Drosophila melanogaster with 6 samples.

Results

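The nuclear genome of Drosophila melanogaster encodes most subunits of the oxidative phosphorylation system, and 83 of the 17117 genes in the authors' deposited table are such subunits by their symbols. They were taken by name: symbols starting with ND-, UQCR- or ATPsyn, those of SdhA to SdhD and of the nuclear COX4 to COX8 subunits with a letter after the number, and blw, RFeSP, Cyt-c1, Cyt-c-p and levy. No measured value was used in choosing them. Complex I holds 40 of them, complex II 6, complex III 10, complex IV 10 and complex V 16, and cytochrome c is 1 gene. Of the 83, 18 have symbols that end in L, L1 or L2 and are paralogs of another subunit gene.

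The messenger RNA came from γ5β′2a, β′2mp and β′2mp_bilateral mushroom body output neurons, which carry signals out of the learning centre of the fly brain, sorted by fluorescence. They came from mated females of 3 to 4 days, with brains taken at ZT12 to ZT13.5 (counted in hours from lights-on). In the bantam sponge genotype (3 libraries), R14C08-p65.AD stood opposite UAS-bantam_sponge and R15B01-GAL4.DBD opposite a further copy of UAS-bantam_sponge. In the scramble sponge control (3 libraries), UAS-scramble_sponge took both of these places. All flies also carried UAS-CD8::GFP, a membrane GFP, and so shared the split-GAL4 driver of line MB011B, which is active only where both of its parts are made. A sponge is a transcript with binding sites that sequester a microRNA, here bantam, and the comparison asks which messenger RNAs differ when bantam is held back. Poly(A) libraries do not measure the mature microRNA, so they cannot show how far it was sequestered. A sorted library can still hold other cells, and fewer cells of a type cannot be told apart from less RNA per cell in these bulk samples.

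Oxidative phosphorylation takes place in the inner mitochondrial membrane. Complex I takes electrons from NADH and complex II from succinate, complex III passes them to the small carrier cytochrome c, and complex IV hands them to oxygen. Complexes I, III and IV pump protons as they do so, and complex V, the ATP synthase, makes ATP as the protons flow back. Neurons draw much of the ATP for ion pumping and synaptic transmission from this pathway. Many duplicated subunit genes of Drosophila, often named with a final L, are known for expression in the testis.

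For each gene the authors' deposited table gives the log2 of the ratio of bantam sponge to scramble sponge (the log2 fold), an average log2 CPM over all libraries (reads scaled to library size) and the p of an edgeR exact test, but nothing per library. The uncertainty of each fold is therefore shown as the 95% interval that its deposited p implies. This interval rests on the dispersion (spread between libraries) that the authors' test used. How far that dispersion follows a gene's own spread is not given. It was not set by level alone: the interval was −5.43 to 2.44 for Cchl (mean log2 CPM 8.58). For ND-ASHI (8.59) it was −3.16 to 3.30. At a mean log2 CPM of 6 to 7 the median dispersion was 2.67 for subunit genes and 3.23 for others. It was 1.8 for subunit genes and 2.2 for others at 7 to 8, and 1.45 and 1.58 at 8 to 9. At higher levels it was alike, at 1.32 for both at 9 to 10. At 11 to 12 it was 1.16 for subunit genes and 1.17 for others. The CPM given for each genotype below was inferred from the deposited mean and fold with equal weight on both genotypes, and levels are compared between genes per kilobase of annotated exon (CPM per kb). The effective sizes of the libraries, worked out from genes with few reads, ran from 8.182 to 119.1 megareads in bantam sponge and from 5.306 to 98.01 megareads in scramble sponge, and 9286 genes had a read in at least 1 library. Among marker genes, all 5 neuronal ones were read, at a summed 4286 CPM in bantam sponge and 4470 CPM in scramble sponge. Coordinates are those of dm6.

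Transcripts of all 5 complexes were abundant in the sorted neurons of both genotypes, and no subunit gene passed the test for a difference between them. Of the 65 genes that are not paralogs, 62 were read in both genotypes. The other 3 were ND-B8, read in 1 library, and ND-MNLL and UQCR-14, with no read. Log2 folds of the 62 genes in the authors' deposited table ran from −0.72 to 0.67, with a median of −0.10 beside −0.13 for all genes with reads. Of these genes 20 were above 0 and 42 below, against 53.5% below 0 among all genes with reads, and 37 had an absolute log2 fold of at most 0.25.

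None of the 62 genes passed an adjusted p of 0.05 (edgeR exact test, Benjamini-Hochberg over all 17117 rows), a threshold that 0% of all genes passed. None reached an unadjusted p under 0.05 either, against 388 of the 9286 genes with reads, or 4.18%. The exact-test p-values of the 62 genes in the authors' deposited table lay between 0.621 and 0.999, and 31 of them were above 0.9. Intervals could be computed for 58 of the genes and reached at least 2.78 and up to 5.19 log2 units to each side. A change of the size of any of these folds was therefore not detectable with these 6 libraries, and the p-values do not show that the genotypes were alike.

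**Figure D1:**
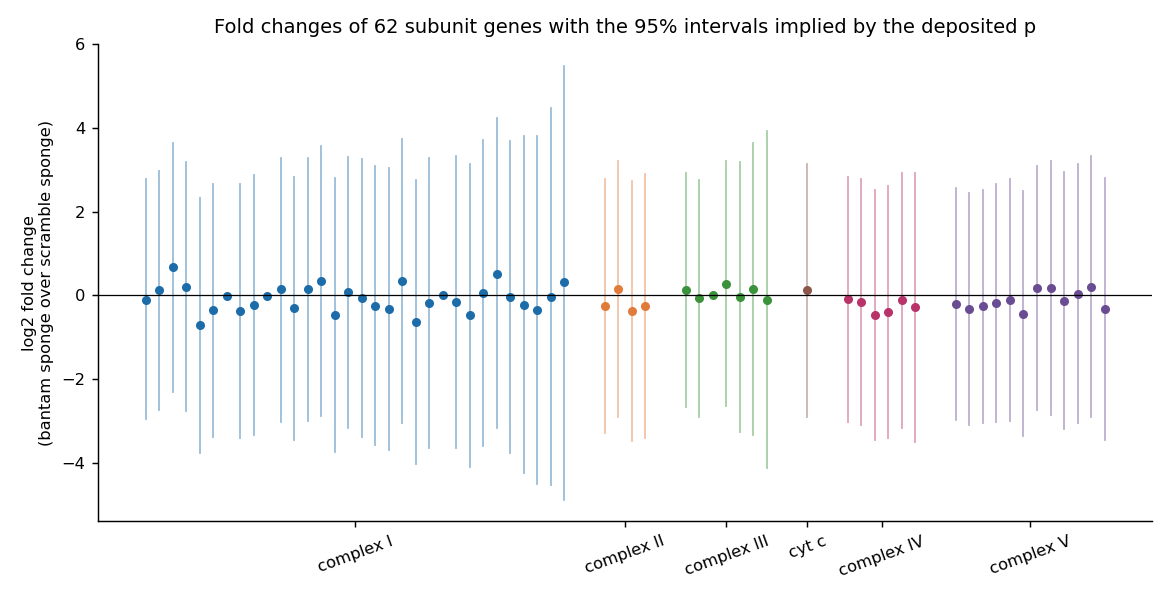
Log2 fold (bantam sponge over scramble sponge, vertical axis) of each of the 62 subunit genes read in both genotypes, grouped by complex, with vertical lines for the 95% interval implied by the deposited p where one could be computed. All points lie between −0.72 and 0.67 and every interval shown spans 0.

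Over their whole range of levels the folds of the subunit genes were spread less widely than those of other genes. The other 2701 genes with a mean log2 CPM in the range of the 62 (6.46 to 11.36) had a median log2 fold of 0.04 and an interquartile range of 1.14 in the authors' deposited table. For the subunit genes that range was 0.40. The 2701 others include genes with no read in 1 genotype, which the comparisons by level below leave out. Among the other genes 59.2% were within the largest absolute fold of the subunits (0.72), and 48.2% were below 0 against 67.7% of the subunits. The contrast depended on level. At a mean log2 CPM of 6 to 7 the interquartile range was 0.17 for 2 subunit genes and 1.64 for 742 others. At 7 to 8 it was 0.23 for 11 subunit genes and 1.34 for 1096 others. At a mean log2 CPM of 8 to 9 the interquartile range was 0.37 for 21 subunit genes and 0.88 for 499 others, but at 9 to 10 it was 0.51 for 20 subunit genes and 0.52 for 257 others. At 10 to 11 the interquartile range was 0.22 for 5 subunit genes and 0.42 for 79 others. At 11 to 12 it was 0.06 for 3 subunit genes and 0.15 for 20 others. The median absolute log2 fold at 11 to 12 had the other order, 0.26 for the subunit genes and 0.19 for the others. These are descriptions without a test, since genes of 1 set of libraries are not replicates.

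**Figure D2:**
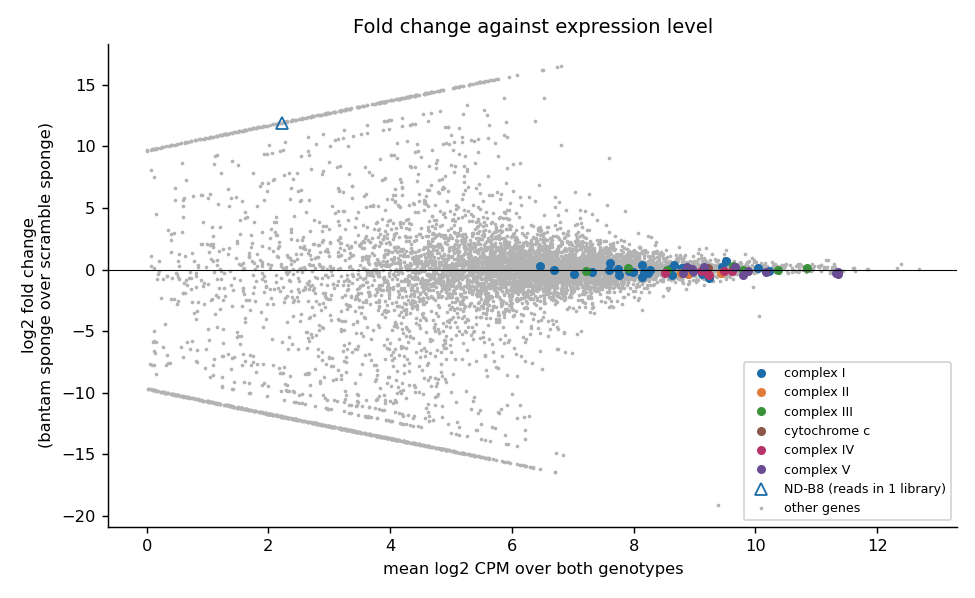
Log2 fold (bantam sponge over scramble sponge, vertical axis) against mean log2 CPM (horizontal axis) for genes at or above 0 on that axis, with subunit genes coloured by complex and ND-B8 as a triangle. The straight lines of points at the edges are genes with no read in 1 genotype, whose fold depends on the prior count. The 62 subunit genes read in both genotypes lie in a band between −0.72 and 0.67 at a mean log2 CPM of 6.46 to 11.36.

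Summed over the 62 genes, subunit transcripts made up an inferred 3.76% of reads in bantam sponge and 4.05% in scramble sponge, a log2 ratio of −0.11. Complex V gave 1.32% in bantam sponge and 1.5% in scramble sponge, and complex I, with far more genes, 1.27% in bantam sponge and 1.33% in scramble sponge. Complex III made up 0.574% in bantam sponge and 0.548% in scramble sponge. For complex IV the sums were 0.331% in bantam sponge and 0.392% in scramble sponge, and for complex II 0.204% in bantam sponge and 0.23% in scramble sponge. Of the 500 genes with the highest mean log2 CPM, 39 (7.8%) were subunit genes. Blw, ATPsynbeta and ATPsynC ranked 10, 11 and 12 among the 9286 genes with reads.

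Per kilobase, the median level was lowest in complex I and highest in cytochrome c and complexes IV and V, without a test. Median levels were 386 CPM per kb for complex I (32 genes, 104 to 754), 476 for complex II (4 genes, 250 to 532) and 587 for complex III (7 genes, 150 to 1129). Cytochrome c stood at 878, complex IV at a median of 864 (6 genes, 428 to 1032) and complex V at 832 (12 genes, 150 to 1374). No complex I gene reached the median of complex IV or of complex V. Across the 62 genes the correlation of level per kb with log2 exon length was −0.05 (Pearson r; Spearman rho −0.03), and that of the mean log2 CPM was 0.57 (rho 0.52), over genes that share the same 6 libraries.

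**Figure D3:**
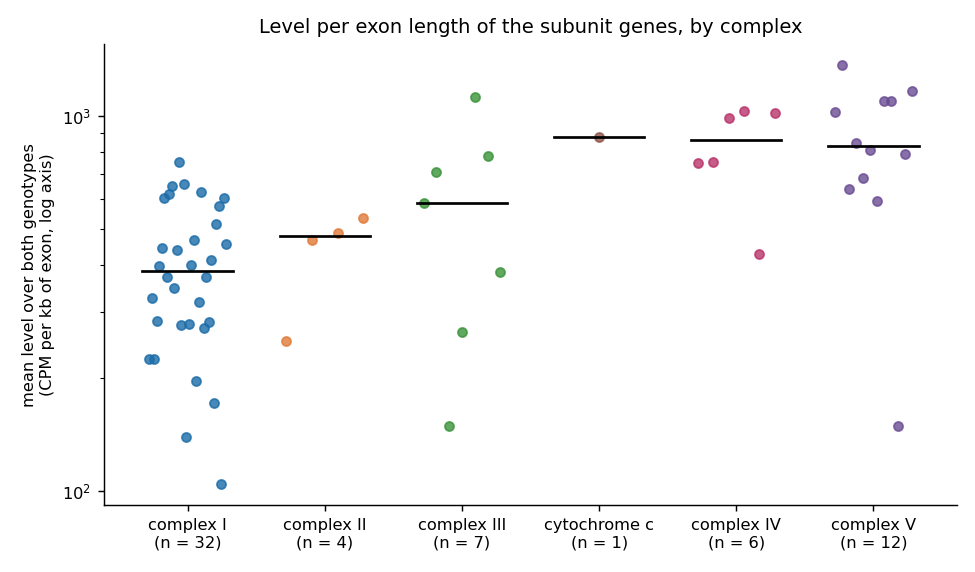
Level of each subunit gene read in both genotypes, as CPM per kb of exon on a log axis, by complex, with black lines for medians (taken on the log scale). Medians are 386 CPM per kb for complex I and 864 for complex IV, and the highest point is ATPsynC at 1374.

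Complex I showed the widest range of folds, −0.72 to 0.67, with 11 genes above 0 and 21 below and a median of −0.05. Its 7 core nuclear subunits, which belong to the electron input and quinone-binding modules, had 2 above and 5 below 0 and a median of −0.24. The 25 accessory subunits read in both genotypes had 9 above and 16 below and a median of −0.03. ND-75 (X, 8248651 to 8251687), the large iron-sulphur subunit of the electron input module, had an inferred 894 CPM in bantam sponge and 561 CPM in scramble sponge. The log2 fold of ND-75 in the authors' deposited table, 0.67 with a 95% interval of −2.31 to 3.65 (exact-test p = 0.637), was the highest among all 62 genes.

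ND-30 (3L, 3158485 to 3159578), a core subunit of the quinone-binding module, was at the other end, with an inferred 459 CPM in bantam sponge and 755 CPM in scramble sponge. In the authors' deposited table this was a log2 fold of −0.72 (−3.76 to 2.33) with an exact-test p of 0.621. Core subunits of the arm that reaches into the matrix thus stood at either end of the range, with intervals that overlap widely. Accessory subunits made up the rest of the extremes. In the authors' deposited table ND-13B had a log2 fold of 0.52 (−3.18 to 4.23), ND-B17 one of 0.35 (−3.04 to 3.74). ND-19 had −0.64 (−4.03 to 2.75) and ND-18 −0.48 (−4.10 to 3.15).

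By level, ND-51, the subunit that binds the flavin and NADH, led complex I with 754 CPM per kb. Its inferred level was 1159 CPM in bantam sponge and 1239 CPM in scramble sponge. ND-ACP, the mitochondrial acyl carrier protein, which also serves fatty acid and iron-sulphur cluster synthesis, followed at 659 CPM per kb, with 485 CPM in bantam sponge and 625 CPM in scramble sponge. ND-39 stood next at 651 CPM per kb, with 1096 CPM in bantam sponge and 1008 CPM in scramble sponge. The lowest gene read in both genotypes was ND-MWFE, a small membrane subunit, at 104 CPM per kb, with 97.1 CPM in bantam sponge and 78.5 CPM in scramble sponge. Of its exon bases 35% are shared with other genes, so reads there cannot be told apart from theirs.

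ND-B8, an accessory subunit (2L, 4454626 to 4455207), was the only non-paralog whose reads came from 1 genotype. Its deposited mean resolves to 3286 reads in the bantam sponge library of 119.1 megareads (27.6 CPM there) and none in the other 5 libraries. In the authors' deposited table its mean log2 CPM was 2.22 and its exact-test p 0.121. Reads confined to 1 library were common at that level: 117 of the 380 genes with a mean log2 CPM from 1.7 to 2.7 (30.8%) had them. Without that library ND-B8 would have no read. The complex I genes read in both genotypes were at least 104 CPM per kb, against 10.1 for ND-B8.

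Succinate dehydrogenase, complex II, is encoded wholly in the nucleus and also works in the citric acid cycle. SdhA, the flavoprotein, had an inferred 628 CPM in bantam sponge and 747 CPM in scramble sponge, a log2 fold of −0.25 (95% interval −3.29 to 2.79) in the authors' deposited table. SdhB, the iron-sulphur protein, had 597 CPM in bantam sponge and 540 CPM in scramble sponge, with a fold of 0.15 (−2.91 to 3.20). Both membrane anchors were below 0. SdhC had 403 CPM in bantam sponge and 478 CPM in scramble sponge (−0.25, −3.40 to 2.91), and SdhD 415 CPM in bantam sponge and 536 CPM in scramble sponge (−0.37, −3.48 to 2.74). SdhA, at 250 CPM per kb, was about as abundant as SdhB in CPM but lowest of the 4 once its longer exons were allowed for.

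Complex III was the most evenly divided, with 3 genes above 0, 4 below and folds from −0.11 to 0.28. UQCR-C1 and UQCR-C2 encode its large core proteins. UQCR-C1 (3R, 14890231 to 14892387) had an inferred 1926 CPM in bantam sponge and 1758 CPM in scramble sponge, and UQCR-C2 1288 CPM in bantam sponge and 1355 CPM in scramble sponge. RFeSP, the Rieske iron-sulphur protein, had 868 CPM in bantam sponge and 714 CPM in scramble sponge, with the highest fold of the complex, 0.28 (95% interval −2.64 to 3.20, authors' deposited table). Cyt-c1, the haem subunit that meets cytochrome c, had 892 CPM in bantam sponge and 894 CPM in scramble sponge. The lowest per kb were UQCR-11 at 150 and UQCR-6.4 at 265. UQCR-6.4 has 40.5% of its exon bases in common with genes on the opposite strand.

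Cyt-c-p, the cytochrome c gene (2L, 16719932 to 16722644), had an inferred 622 CPM in bantam sponge and 574 CPM in scramble sponge. The authors' deposited table gives it a log2 fold of 0.12 (95% interval −2.90 to 3.13, with p = 0.935 by the exact test). The other cytochrome c gene of the fly, Cyt-c-d, is known for its role in sperm formation and lies outside the naming rule. It had 1 read, in the scramble sponge library of 98.01 megareads.

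All 6 complex IV genes read in both genotypes had folds below 0, from −0.47 to −0.09, with a median of −0.23. They encode small subunits around the mitochondrially encoded catalytic core. Levy, which encodes the COX6A subunit, was lowest, with an inferred 507 CPM in bantam sponge and 701 CPM in scramble sponge (log2 fold −0.47 in the authors' deposited table, 95% interval −3.46 to 2.53). COX5A had 514 CPM in bantam sponge and 676 CPM in scramble sponge, with a fold of −0.39 (−3.41 to 2.62). COX7A, the most abundant per kb at 1032, had 680 CPM in bantam sponge and 760 CPM in scramble sponge, and COX6B, at 992 per kb, 757 CPM in bantam sponge and 808 CPM in scramble sponge. COX7C was lowest per kb at 428, with 329 CPM in bantam sponge and 402 CPM in scramble sponge. The shared sign of these 6 folds is a description: each fold is far inside its own interval.

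The 3 nuclear complex IV genes looked up outside the naming rule were also below 0, COX8 by so little that no interval could be computed. The log2 folds in the authors' deposited table were −0.32 for COX4, −0.01 for COX8 and −0.11 for CG7630, whose current name is COX7B. The 13 mitochondrially encoded subunit genes of the same pathway divided 10 above and 3 below 0, with a median of 0.12. The catalytic subunits of complex IV among them, COX1, COX2 and COX3, had folds of 0.12, 0.10 and 0.25 in the authors' deposited table. The nuclear and mitochondrial subunits of complex IV given here thus lay on either side of 0. These amounts were smaller than the interval of any of the 6 nuclear genes within the naming rule. A difference between these groups was not tested.

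Complex V held the most abundant subunit transcripts. Blw (2R, 22799099 to 22802180) encodes the alpha subunit of the catalytic head, ATPsynbeta (4, 1031484 to 1034917) the beta subunit that makes ATP, and ATPsynC (3R, 31216145 to 31219630) the ring that protons turn. Blw had an inferred 2435 CPM in bantam sponge and 2817 CPM in scramble sponge, a log2 fold of −0.21 (95% interval −2.99 to 2.57, authors' deposited table). ATPsynbeta had 2310 CPM in bantam sponge and 2912 CPM in scramble sponge (−0.33, −3.11 to 2.44), and ATPsynC 2337 CPM in bantam sponge and 2795 CPM in scramble sponge (−0.26, −3.04 to 2.52).

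These 3 folds were all below 0, while 17 of the 20 other genes at a mean log2 CPM of 11 to 12 were above it. By part of the enzyme, median log2 folds were −0.20 for the head (4 genes), −0.22 for the stalk (4 genes) and −0.05 for the membrane part (4 genes) in the authors' deposited table. The stalk gene ATPsynO had the lowest fold of the complex, −0.44 (−3.37 to 2.50), with an inferred 750 CPM in bantam sponge and 1015 CPM in scramble sponge. ATPsyndelta, a small subunit of the head, was lowest per kb at 150, well below the 594 of the next gene. It has the longest annotated exon sequence of all subunit genes, 3817 bases, of which 35.6% overlap genes on the opposite strand.

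The 18 paralogs were almost without reads, in a table where 7831 of all 17117 genes had no read in any library. Of the 18, 17 had none in any of the 6 libraries: ND-20L, ND-24L, ND-49L, ND-51L1, ND-51L2 and ND-B14.5AL of complex I, SdhAL and SdhBL of complex II, and UQCR-11L and UQCR-14L of complex III, with COX4L, COX5BL, COX6AL and COX7AL of complex IV and ATPsynCF6L, ATPsynGL and ATPsynepsilonL of complex V. For COX5BL all exon bases are shared with the opposite-strand gene Trmt6, so reads there cannot be told apart from those of Trmt6 and its 0 reads set no limit. For the others, no reads over all libraries still allow up to 0.00944 CPM (3 reads, counting error only). ATPsynbetaL (3L, 16097834 to 16100088) was the exception, with 5 reads in the scramble sponge library of 43.57 megareads, or 0.115 CPM there, and none in the other 5 libraries.

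The genes these paralogs resemble were read in both genotypes in all cases but 1. Partners were found by dropping the final L, with levy for COX6AL and sun, the epsilon subunit, for ATPsynepsilonL. For the 15 unread paralogs with a read partner, COX5BL left out, ratios use the limit of 3 reads, which leaves out variation between libraries. By counting error alone the paralog was at least 7022-fold lower per kb (UQCR-11L against UQCR-11) and up to at least 171201-fold lower (ND-51L1 against ND-51). ATPsynbetaL was 141652-fold lower than ATPsynbeta, a ratio that rests on its 5 reads. The median log2 difference over these 16 pairs, with unread paralogs at their limit, was −15.82. UQCR-14L could not be set against its partner, since UQCR-14 had no read in any library.

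**Figure D4:**
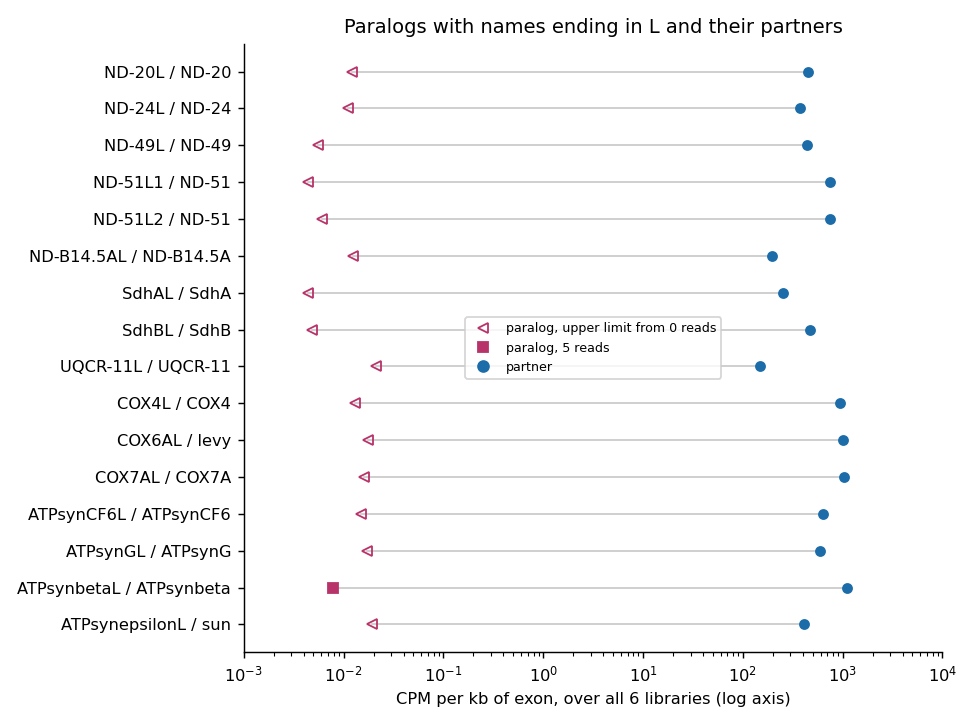
Level per kb of exon over all 6 libraries (log axis) of 16 paralogs and their partners, with open triangles for the upper limit from 0 reads. All paralogs lie to the left of 0.1 CPM per kb and all partners to the right of 100.

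Most paralogs lie on another chromosome arm than their partner. Only 4 paralogs with a read partner lie on its chromosome arm and 13 on another. COX5BL begins 122 bases from COX5B on 2L. COX7AL lies 2625 bases from COX7A on 3R and had no read, while COX7A stood at 1032 CPM per kb. A further 6 paralogs whose current symbols would fit the naming rule stand in the table under other names (CG14077 for COX6AL2, CG31644 for COX6CL, CG34172 for COX7AL2, CG43206 for UQCR-6.4L, CG44296 for COX7CL and CG6629 for SdhCL), and none of them had a read. Of the 12 testis marker genes present, 9 had no read, beside 7831 of all 17117 genes. The other 3 were read, among them bol at a mean log2 CPM of 7.81 in the authors' deposited table.

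Both non-paralogs without a read overlap another gene along all their exon bases. ND-MNLL, a small accessory subunit of complex I (X, 7893053 to 7893798, minus strand), has the same coordinates and strand as CG45089, which also had no read. UQCR-14 (X, 16286288 to 16286988, plus strand), a small matrix-side subunit of complex III, lies within CG32576 on the opposite strand, itself read at an average log2 CPM of 5.64 (log2 fold −2.29, exact-test p = 0.476, authors' deposited table). Among all protein-coding genes, 387 of the 399 with at least 99% of their exon bases shared had no read (97%), against 3938 of 9114 with no shared base (43.2%). The share did not climb steadily with overlap, at 780 of 3966 (19.7%) under 50% shared and 163 of 371 (43.9%) from 50 to 99% shared. The 33 subunit genes that share some but under 50% of their exon bases all had reads. The library protocol (SMART-seq2, Nextera XT) does not keep the strand of a transcript, so reads of genes that overlap on either strand cannot be told apart. Whether ND-MNLL and UQCR-14 are transcribed in these neurons could not be read from the table.

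**Figure D5:**
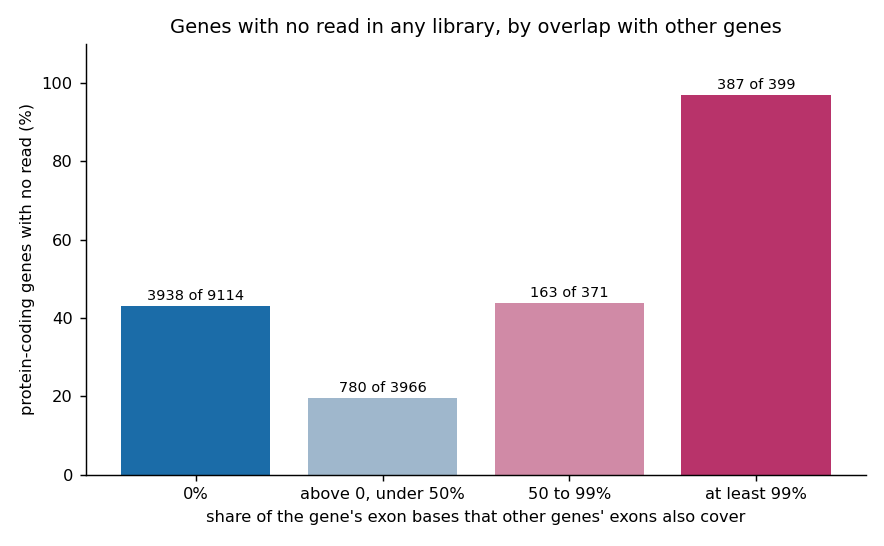
Share of protein-coding genes with no read in any library (vertical axis, percent), by the share of their exon bases that overlap other genes. The share without a read is 43.2% with no overlap, 19.7% and 43.9% with partial overlap, and 97% with at least 99% of bases shared, the class that holds ND-MNLL and UQCR-14.

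No other gene of the pathway passed the adjusted threshold either. The 30 subunit symbols listed outside the naming rule include the 13 mitochondrial genes, each also under an alternative name. Of the 30 symbols 17 were present, and those not found are alternative names of genes that were. All 17 had reads, 10 above and 7 below 0 (median 0.12 over those read in both genotypes). None had an unadjusted p under 0.05. Of the 13 assembly factors present, 11 had reads, 6 above and 5 below 0 (median 0.02), none under 0.05. The most abundant were IscU, the scaffold on which iron-sulphur clusters are built, at a log2 fold of 0.02 (95% interval −2.88 to 2.93), and Cchl, which attaches haem to cytochrome c, at −1.50 (−5.43 to 2.44), as the authors' deposited table has them. Carriers and energy transfer genes numbered 12 with reads, 5 above and 7 below 0 (median −0.12), none under 0.05. Argk, the arginine kinase that buffers ATP, had a fold of 0.04 (−2.73 to 2.82), and sesB, the ADP/ATP carrier, −0.12 (−2.90 to 2.66), in the authors' deposited table.

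Of 7 citric acid cycle genes 2 were above and 5 below 0 (median −0.12), none under 0.05. Mdh2, mitochondrial malate dehydrogenase, had a log2 fold of −0.19 (−3.02 to 2.65) and the aconitase gene Acon 0.45 (−2.49 to 3.39) in the authors' deposited table. Regulators of mitochondrial gene expression and dynamics spread more widely, but none had a mean log2 CPM above 8.04. Genes outside the subunits also spread more at low levels, with an interquartile range of 1.64 at 6 to 7 and 0.52 at 9 to 10. Of the 13 regulators with reads 6 were above and 7 below 0 (median 0.60 over the 9 read in both genotypes). Of these regulators 3 had an unadjusted p under 0.05, where 1.06% of all genes with reads are higher and 3.12% lower. The Ets factor gene Ets97D had an inferred 181 CPM in bantam sponge and no read in scramble sponge (p = 0.00172 by the exact test, authors' deposited table). No read in bantam sponge was found for mtDNA-helicase, which unwinds the mitochondrial genome, or for park, the ubiquitin ligase of mitochondrial quality control, where scramble sponge had an inferred 27.4 and 10 CPM. Their exact-test p-values of 0.0247 and 0.0304 come from the authors' deposited table. The gene of the mitochondrial RNA polymerase, mtRNApol, was likewise unread in bantam sponge and stood at an inferred 11 CPM in scramble sponge, but missed 0.05 (p = 0.0777 by the exact test, authors' deposited table). None of these genes passed the adjusted threshold. Both park (2.34) and mtRNApol (2.47) lay at a mean log2 CPM from 1.7 to 2.7. In that range 165 of 380 genes (43.4%) had no read in 1 genotype. Opa1 and Drp1, of mitochondrial fusion and fission, were the most abundant of the list, at −1.42 (−6.06 to 3.22) and −0.32 (−4.46 to 3.82).

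Markers of other cells differed in sum between the genotypes, and all cells hold mitochondria. Inferred sums were 1502 CPM in bantam sponge and 692 CPM in scramble sponge for 5 glial genes, and 728 CPM in bantam sponge and 1815 CPM in scramble sponge for 5 hemocyte genes. The hemocyte order turned, to 728 CPM in bantam sponge and 470 CPM in scramble sponge, without PPO1 and Hml, each read in 1 library. PPO1 had all its 21263 reads in the scramble sponge library of 5.306 megareads. For 7 photoreceptor genes they were 99.2 CPM in bantam sponge and 261 CPM in scramble sponge. For 6 fat body genes they were 232 CPM in bantam sponge and 197 CPM in scramble sponge. FASN1 had the highest mean log2 CPM of these 6, at 7.36 (log2 fold 1.25). For 7 muscle genes the sums were 70.2 CPM in bantam sponge and 137 CPM in scramble sponge. The gene up had all its 9578 reads in the scramble sponge library of 98.01 megareads. Without it the muscle sums were 70.2 CPM in bantam sponge and 104 CPM in scramble sponge. Of those with reads, 4 glial genes were above and 1 below 0, 1 and 4 of the hemocyte genes, 0 and 6 of the photoreceptor genes, 2 and 4 of the fat body genes, and 1 and 6 of the muscle genes. The glial gene below 0 was repo, at a log2 fold of −6.70 (exact-test p = 0.0525, authors' deposited table). Gs2 had the highest mean log2 CPM of the glial genes, 9.82 (log2 fold 1.23), with alrm next at 6.59. Of the hemocyte genes only Pxn (mean log2 CPM 9.19, log2 fold 0.72) and NimC1 (mean log2 CPM 1.48) were read in bantam sponge. The glial sums, and the hemocyte sum in bantam sponge, thus rest mainly on Gs2 and Pxn. Without a read in bantam sponge were Arr2, ninaE, PPO1, Sr-CI, Hml, Yp1 and up, without one in scramble sponge e and moody, and without any Arr1. Unadjusted p-values under 0.05 were found for e, higher in bantam sponge, and for Arr2, PPO1, Yp1 and Yp3, lower there. All 27905 reads of e lay in the bantam sponge library of 119.1 megareads, so without that library e, and without the 5.306-megaread library PPO1, would have no read. The part of such cells in the subunit values was not tested.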

How the data were processed

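Poly(A) RNA of sorted neurons was amplified (25 PCR cycles, SMART-seq2 with changes, Nextera XT), per the labels and the series' design text. By these sources 2 replicates were sequenced in pairs of 75 bases and 1 in pairs of 150; which is which is not given in the sources used here. Tools of the authors were STAR, Picard, HTSeq and edgeR, with the build dm6, per the submitters' processing notes, which give no versions. The deposited log2 fold changes and mean log2 CPM are the authors' own, and the deposited p-values are those of the authors' edgeR exact test without adjustment, as the file headers say. No value per library was used here. The labels call the replicates biological without saying how flies were pooled, so p-values refer to these 6 libraries only. They rest on the dispersion that the test used, and how far it follows each gene's own spread is not given.

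Benjamini-Hochberg adjustment ran over all 17117 rows. Library sizes and a common dispersion of 4.50 were solved from genes with 1 read, whose means follow from the tool's prior count of 2, and a count in 1 library was accepted within 1e-06 of a whole number. Intervals (95%) use the negative binomial dispersion implied by each deposited fold and p, for genes whose mean log2 CPM is at least 3 and whose absolute fold is at least 0.02. They restate the deposited p. A gene had no read in 1 genotype where the absolute fold exceeded the mean log2 CPM by over 9.3; such folds are not printed. Floors of 3 reads cover counting error only. Solver and intervals were tested on simulated data. Exon lengths, overlaps and coordinates come from Ensembl release 115, in which 16959 rows matched. Python 3.11.15, numpy 2.4.6, pandas 2.3.3, scipy 1.17.1 and matplotlib 3.10.9 were used.

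The genes, lists, markers and tests were chosen with earlier results of these data known. Named are the 3 highest and 2 lowest genes per kb of each complex, the 3 largest folds in each direction, all paralogs and partners, all of complex II and cytochrome c, any subunit gene with no read in 1 genotype, any gene of the subunits or lists with an unadjusted p under 0.05, and the 2 most abundant of each other pathway list. Other genes are named beside these for a count of 5 or fewer, an overlap, a renamed symbol or no read in 1 genotype, chosen after their values were seen. Alternatives were other adjustments, filters, lengths and centring.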

Additional observations from a re-analysis of the deposited data

How the results depend on the processing

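Across 18 results and 49 alternatives (Holm adjustment, adjustment over fewer genes, filters on low values, paralogs left out, the longest transcript as length, and folds centred on the median of genes whose mean log2 CPM is at least 3, which raises them by 0.03), 49 kept their side of the threshold or moved by less than the SD across genes, and 0 moved further. Many of these outcomes were fixed beforehand and are no sign of stability. The filters and the leaving out of paralogs kept the same genes of complexes II, III and IV (4, 7 and 6) and of cytochrome c (1). The 1 median to change sign was that of complex III, −0.00 as deposited and 0.03 after centring. Counts of subunit genes called stayed at 0 under every adjustment tried. No adjustment could have changed this, since the smallest unadjusted exact-test p of a subunit gene was 0.121 (ND-B8). At a mean log2 CPM of at least 0, 63 rather than 64 genes counted as read, ATPsynbetaL being left out. The median paralog difference was −15.80 with COX5BL and −15.82 without it, an alternative chosen after seeing the data. No paired analysis was possible because the table holds 1 comparison and no values per library; for the same reason no replicate could be left out. Searches for bantam seed matches in 3′ UTRs and for the nuclear respiratory gene element near gene starts were planned and not run, since no genome sequence was used here. Precision is limited by 3 libraries per genotype that span a 22.4-fold range of depth.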
